A study of Mus musculus with 6 samples.

Results

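The enzymes of the urea cycle and of hepatic ammonia handling were followed in whole livers of male mice that had received an adenovirus for a modified glycolytic regulator or a control adenovirus. The set was defined by name as Nags, Cps1, Otc, Ass1, Asl, Arg1, Arg2 and Glud1, and its members were all probe sets that the platform annotation ties to exactly 1 of these symbols. This gave 11 of the 22626 probe sets analysed, for 7 of the 8 genes (the whole table names 12393 genes in this way). Ass1, argininosuccinate synthetase, shares its only probe set with a second symbol and has no value here.

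All 6 mice were KK/H1J, a strain with polygenic obesity and type 2 diabetes, aged 12 to 14 weeks (the free-text description of 1 mouse reads 2 to 14), about 35 g and fed without restriction. In the BPD group, 3 mice (numbers 23, 28 and 36) received a tail vein injection of an adenovirus encoding PFK-2/FBPase-2 without bisphosphatase activity, the form of this bifunctional enzyme that makes fructose 2,6-bisphosphate and cannot break it down. In the GFP group, 3 mice (22, 29 and 31) received an adenovirus encoding green fluorescent protein at the same stated dose, so every animal carried virus and there was no uninfected group. Livers were taken on day 7 and each was measured on its own array. The promoter of the transgene is not given in the sources used here, and no probe set named for Pfkfb1, the liver gene of this enzyme family, was analysed here to follow delivery.

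The urea cycle turns toxic ammonia into urea, and the liver is the organ that runs it in full. In mitochondria of hepatocytes, carbamoyl phosphate is made from ammonia and bicarbonate and joined to ornithine. In the cytosol the resulting citrulline takes up a nitrogen from aspartate, fumarate is released, and arginine is split into urea and ornithine. The pathway is strongest in hepatocytes around the portal vein, while those around the central vein capture leftover ammonia as glutamine.

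Promoter sequence is shown for the member whose fall was seen with the most probe sets (Otc) and for the members it can be set against (Nags, which fell less, and Glud1, whose direction depended on the scaling of the arrays). RefSeq windows of assembly GRCm38.p6, from 250 bases before to 50 bases after the gene start, were held for 4 of the 8 genes, namely these 3 and Ass1. All run 5′ to 3′ along the gene's own strand, and capitals mark matches to the motifs searched. The windows are chrX:10252055-10252354 on the plus strand for Otc, chr11:102145263-102145562 on the plus strand for Nags and chr14:34310477-34310776 on the plus strand for Glud1.
Otc: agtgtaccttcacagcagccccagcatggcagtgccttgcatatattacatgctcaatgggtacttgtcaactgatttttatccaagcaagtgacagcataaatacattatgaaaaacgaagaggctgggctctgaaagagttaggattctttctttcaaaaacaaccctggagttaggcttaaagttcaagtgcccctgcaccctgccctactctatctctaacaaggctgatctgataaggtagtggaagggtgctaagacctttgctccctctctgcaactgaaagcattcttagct
Nags: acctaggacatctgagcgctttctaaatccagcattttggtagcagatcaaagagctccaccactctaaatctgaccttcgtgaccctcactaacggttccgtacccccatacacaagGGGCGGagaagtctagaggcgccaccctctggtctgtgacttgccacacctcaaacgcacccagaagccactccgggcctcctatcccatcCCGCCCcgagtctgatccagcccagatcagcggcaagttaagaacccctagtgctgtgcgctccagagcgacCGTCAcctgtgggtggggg
Glud1: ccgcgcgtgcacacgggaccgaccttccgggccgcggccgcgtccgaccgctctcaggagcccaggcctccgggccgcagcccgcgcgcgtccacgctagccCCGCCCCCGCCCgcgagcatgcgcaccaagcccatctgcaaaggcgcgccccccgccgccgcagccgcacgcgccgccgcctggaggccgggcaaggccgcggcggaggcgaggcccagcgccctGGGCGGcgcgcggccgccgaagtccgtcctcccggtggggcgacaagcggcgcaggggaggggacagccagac
The motifs, searched on both strands, were the C/EBP site TTGCNNAA, the HNF4 core CAAAGTCCA, the core TGACG of the cyclic AMP element, the HNF1 core GTTAAT, the TATA box TATAAA, the CCAAT box and the GC box GGGCGG. They can overlap in principle. The Otc window, with 44.3% G and C, held none of these letters. The Nags window (57.7% G and C) held 2 GC boxes, starting 132 and 41 bases before the gene start, and 1 TGACG on the opposite strand in the first 50 bases of the gene. The Glud1 window (81.0% G and C) held 3 GC boxes. Among all 32851 windows of this length, GGGCGG occurred in 35.7%, TGACG in 20.8%, TTGCNNAA in 10.8%, CCAAT in 37.4%, TATAAA in 13.6%, GTTAAT in 7.1% and CAAAGTCCA in 0.475%. These are matches of letters only. They carry no statement about the factors.

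The values are deposited MAS5 signals on a linear scale, with median array signals of 174 to 197 in BPD and 135 to 157 in GFP livers. Because of this gap, log2 values were centred on each array's median before testing. The centring matters here, since the median difference over 8151 genes was -0.22 (log2, BPD minus GFP) after centring, 0.081 on the deposited scaling, -0.060 with quantile normalization and 0.50 with arrays centred on hepatocyte markers. Ratios of 3′ to 5′ signal for Gapdh, a sign of RNA quality, spanned -0.44 to -0.21 in BPD and -0.35 to -0.15 in GFP livers (log2). Of the 11 member probe sets 5, for Cps1, Otc, Arg1 and Glud1, were in the top 5% of kept probe sets by mean signal, while both probe sets of Arg2 and 1 of Otc were dim. Signals of different probe sets are not compared as levels.

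Signals of most urea cycle genes were lower in BPD livers. Of the 10 member probe sets bright enough to be tested, 9 were called lower and 0 higher (limma, Benjamini-Hochberg adjusted p under 0.05), against 20.3% called lower and 8.29% called higher among all 13575 tested. Among the 679 brightest probe sets, the top 5%, 58% were called lower and 1.18% higher, so the bright members are to be read against those figures. For these bright probe sets the share called lower was 38.3% on the deposited scaling, 18.4% after quantile normalization and 12.8% after centring on hepatocyte markers. By gene, 6 of 7 fell (Nags, Cps1, Otc, Asl, Arg1 and Glud1) with a median of -0.87 on the log2 scale. The falls of Asl, Otc and Cps1 passed under each of the 4 scalings of the arrays. The fall of Nags did not pass with centring on hepatocyte markers, that of Arg1 passed neither there nor with quantile normalization, and the sign of Glud1 turned in both. On the deposited scaling 7 member probe sets were called lower and 0 higher, where 9.68% and 16.7% of all were. After quantile normalization these counts were 6 and 0, against 12.1% and 12.5% of all, and after centring on hepatocyte markers 5 and 2, against 3.36% and 50.1%. Every BPD liver lay below every GFP liver (centred values) on 9 of the 10 tested member probe sets and above on 0, against 34% and 12.7% of all. The share without overlap among the brightest probe sets, which hold 5 of the member probe sets, was not computed.

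**Figure D1:**
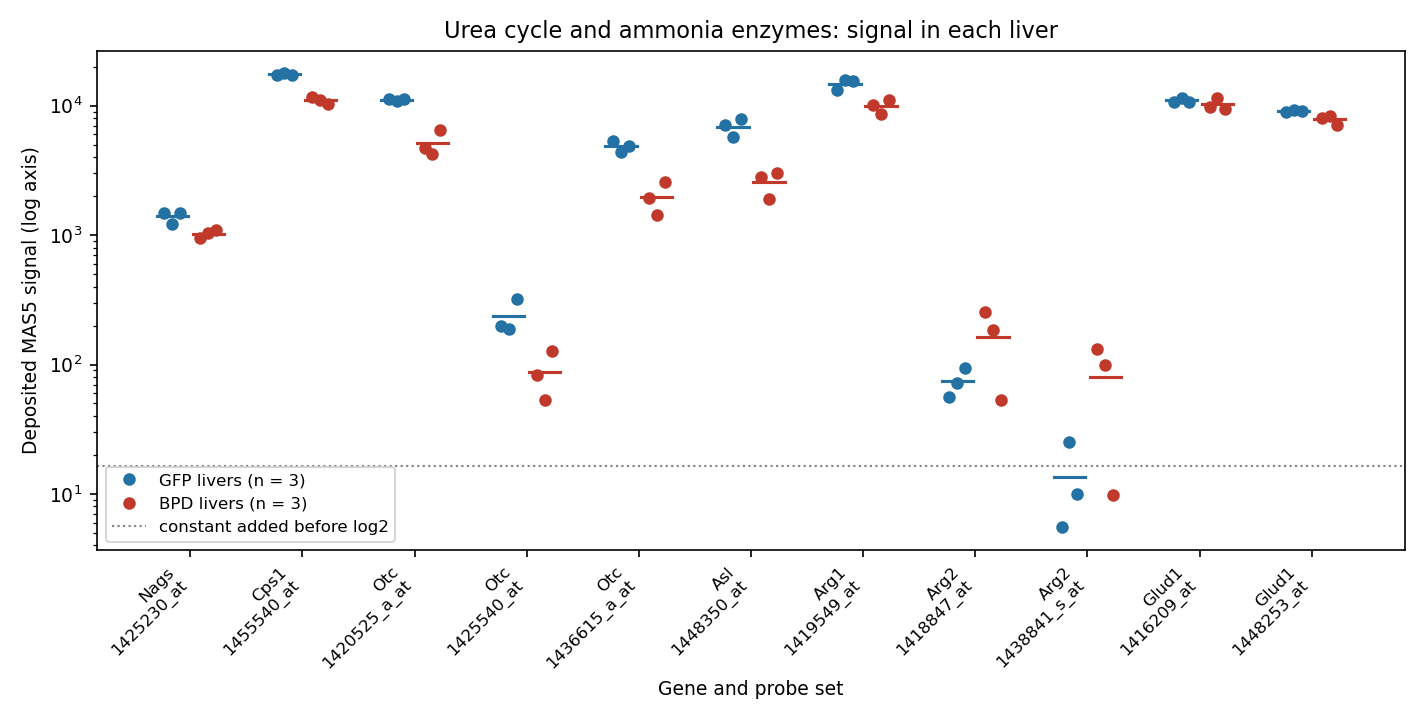
Deposited MAS5 signal (log axis) of the 11 member probe sets in each of the 6 livers, with points for livers, lines for group means (n = 3 each) and a dotted line at the constant of 16.3 added before taking logarithms. The BPD livers lie below the GFP livers for Nags, Cps1, Otc, Asl and Arg1, and the 2 groups overlap for Arg2 and for 1 of the 2 probe sets of Glud1.

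The entry of nitrogen is governed by Nags, which makes N-acetylglutamate, the obligate activator of the next enzyme. Nags signals were 945, 1039 and 1098 in BPD livers 23, 28 and 36, and 1493, 1228 and 1483 in GFP livers 22, 29 and 31. The groups did not overlap. The centred log2 difference was -0.74 ± 0.18 (SE, n = 3 each; limma adjusted p = 0.014). It was not called without BPD mouse 28 (adjusted p = 0.060) or GFP mouse 22 (0.053), and came to -0.021 with centring on hepatocyte markers.

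Cps1 makes carbamoyl phosphate in the mitochondrial matrix and is the rate-limiting enzyme of the cycle. The 3 BPD livers read 11647, 11162 and 10368 and the GFP livers 17386, 17748 and 17332, so the livers within each group lay close together and the groups stood well apart. BPD livers had 63.2% of the mean GFP signal. The centred difference was -0.96 ± 0.12, a 1.95-fold fall (limma adjusted p = 0.0010). The fall was smaller but still called with the deposited scaling (-0.66), quantile normalization (-0.32, adjusted p = 0.020) and centring on hepatocyte markers (-0.24, adjusted p = 0.037).

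Otc, ornithine transcarbamylase, joins carbamoyl phosphate to ornithine and is encoded on the X chromosome. All 3 of its probe sets fell. The brightest read 4731, 4234 and 6449 in BPD and 11191, 10814 and 11284 in GFP livers, a difference of -1.43 ± 0.19 or 2.70-fold (limma adjusted p = 0.0012). The second read 1939, 1438 and 2581 against 5296, 4371 and 4881 (-1.62 ± 0.25, adjusted p = 0.0021). The dimmest read 82.9, 53.1 and 126 against 197, 189 and 322 (-1.61 ± 0.33, adjusted p = 0.0070). BPD liver 36 was the highest BPD liver and BPD liver 28 the lowest on each of the 3 probe sets. No BPD liver reached a GFP liver on any of them.

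Asl, argininosuccinate lyase, releases fumarate and leaves arginine. Signals were 2819, 1896 and 3008 in BPD and 7068, 5690 and 7946 in GFP livers, so that BPD livers had 37.3% of the mean GFP signal. The centred difference was -1.73 ± 0.24, or 3.32-fold (limma adjusted p = 0.0015). Asl ranged from -1.43 to -1.01 under the other scalings and was called under each of them.

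Arginase 1 (Arg1) splits arginine into urea and ornithine in the hepatocyte cytosol. It read 10190, 8621 and 11160 in BPD and 13272, 15667 and 15397 in GFP livers, without overlap. The centred difference was -0.87 ± 0.15 (limma adjusted p = 0.0039) and the fall was called with each mouse left out. It depended on the scaling, with -0.57 (adjusted p = 0.013) on the deposited scaling but -0.21 (adjusted p = 0.22) after quantile normalization and -0.15 (adjusted p = 0.32) after centring on hepatocyte markers.

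The mitochondrial isoform Arg2, which serves arginine use outside the hepatic cycle, did not follow the others. Its brighter probe set read 255, 184 and 53.0 in BPD and 56.5, 72.1 and 93.8 in GFP livers. BPD livers 23 and 28 were thus the highest of all 6 and BPD liver 36 the lowest. The difference of 0.50 ± 0.44 was not called (limma adjusted p = 0.41), whereas without BPD mouse 36 it was 1.06 and called (adjusted p = 0.023). Without BPD mouse 23 or 28 the probe set no longer passed the filter on dim values. With centring on hepatocyte markers the difference was 1.22 (adjusted p = 0.045). The other probe set read 131, 99.7 and 9.82 against 5.53, 25.1 and 10.1, the same livers being high. It is the 1 member probe set that did not pass the filter, and 3 of its 6 values lie under the added constant of 16.3.

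Macrophages and neutrophils can also hold arginases, and their markers moved with the groups. Of 13 tested macrophage markers 8 rose and 0 fell (limma), against 8.75% of all genes called higher. The summed signal of the 16 macrophage markers with a probe set was 34875, 32460 and 19042 in BPD livers 23, 28 and 36 and 5099 to 15638 in GFP livers. Of 9 tested neutrophil markers 5 rose and 0 fell (3 when BPD mouse 23 or 28 or GFP mouse 22 was left out), and the summed signal of 11 was 19899, 20160 and 10071 in BPD and 1664 to 4050 in GFP livers. Lcn2, a gene not confined to neutrophils and named after its value was seen, made up much of this sum. It alone read 12421, 11298 and 7796 in BPD and 787 to 3264 in GFP livers. For the macrophage and the neutrophil sum BPD liver 36, the liver with low Arg2, was the lowest of its group. Its sums still lay above those of every GFP liver, while its Arg2 signal (brighter probe set, 53.0) lay below theirs (56.5 to 93.8). GFP liver 31 had the lowest sums (5099 and 1664) but the highest signal of its group on this Arg2 probe set (93.8). No macrophage or neutrophil marker lay below the added constant in every liver. The number of risen macrophage markers was 4 without BPD mouse 23 or 28, 4 once the Gapdh ratio was added to the model, and 5 without GFP mouse 22. The part of these cells in the arginase signals was not tested.

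Glud1, glutamate dehydrogenase, frees ammonia from glutamate for the cycle and can run in reverse. Its brighter probe set read 9803, 11432 and 9420 in BPD and 10679, 11515 and 10741 in GFP livers, and BPD liver 28 lay within the GFP range. The other read 8077, 8336 and 7116 against 8869, 9301 and 9080. After centring the differences were -0.41 ± 0.12 and -0.52 ± 0.13 (limma adjusted p = 0.031 and 0.016), but they turned to 0.21 and 0.061 with quantile normalization, neither called. With centring on hepatocyte markers they turned to 0.31 and 0.20. There the brighter probe set was called higher (limma adjusted p = 0.039) and the other was not called (0.11). With the deposited scaling they were -0.11 and -0.21, neither called. After centring on array medians, the lower call of the brighter probe set was lost with any mouse left out (adjusted p from 0.057 to 0.094). That of the other was lost on leaving out GFP mouse 22, GFP mouse 31 or BPD mouse 28 (from 0.051 to 0.059).

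**Figure D2:**
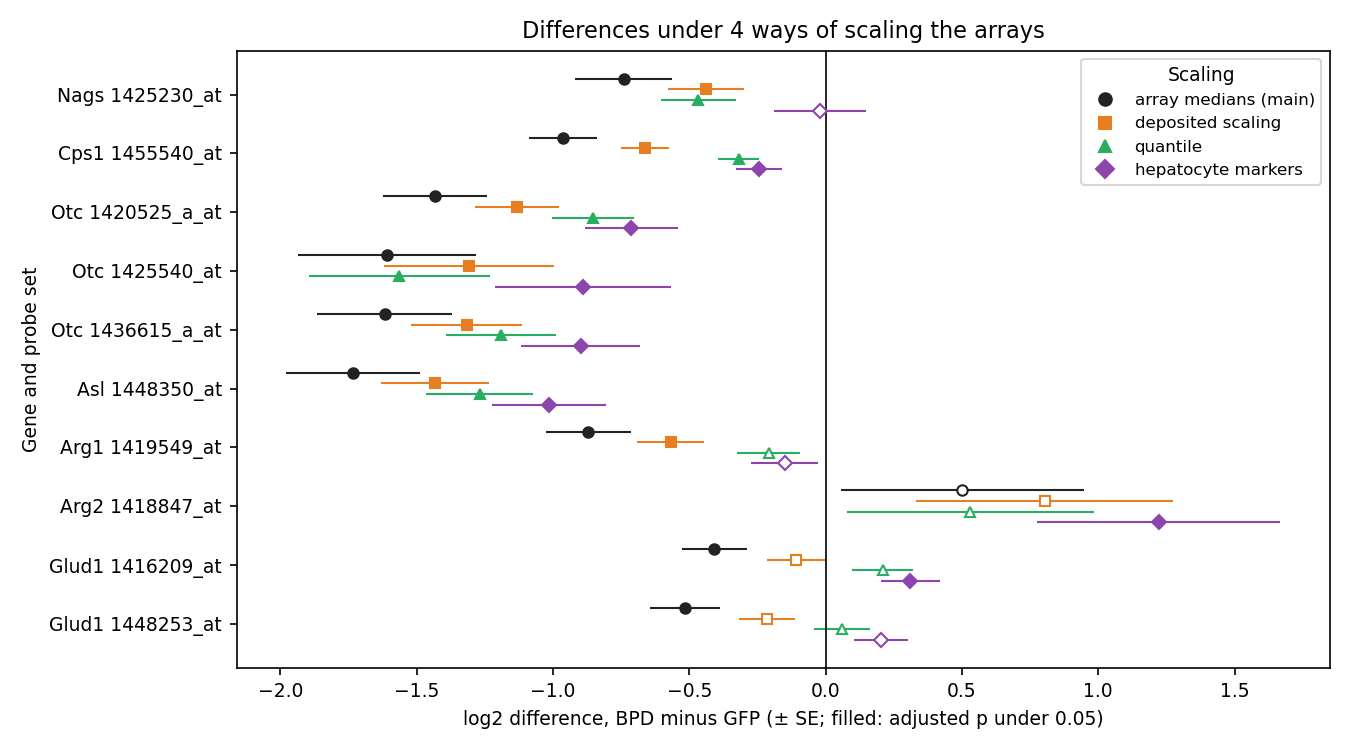
Log2 difference, BPD minus GFP, of the 10 tested member probe sets with its standard error, for 4 ways of scaling the arrays. Filled symbols passed an adjusted p of 0.05 (limma). Asl, Otc and Cps1 stay below 0 and filled throughout. Glud1 crosses 0, and its brighter probe set is filled above 0 with centring on hepatocyte markers (0.31). Arg2 is above 0 but filled only with that centring (1.22).

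A ratio of 2 enzymes within the same array does not depend on a scaling by 1 factor per array, apart from the added constant. It is not free of quantile normalization, which depends on signal. There Nags fell more than Cps1 (-0.47 against -0.32), while the ratio of Nags to Cps1 differed by 0.22 on deposited signals. Each of the other 6 genes was set against Cps1 in its own liver. Groups did not overlap in 3 of the 6 ratios. The share of all genes without overlap against Cps1 was not computed. After centring Cps1 was -0.96 and the median of all genes -0.22. Lying higher against Cps1 is thus the direction of the median gene too. The exact permutation test used here cannot give a p below 0.1 with 3 against 3 livers, so it cannot pass 0.05. Asl lay lower against Cps1 in every BPD liver, with log2 ratios of -2.04, -2.55 and -1.78 in BPD and -1.30, -1.64 and -1.12 in GFP livers, a difference of -0.77 (exact 2-sided permutation p = 0.1, 0.2 adjusted over 6 ratios). Glud1 lay higher against Cps1 in every BPD liver, with -0.25, 0.034 and -0.14 against -0.70, -0.62 and -0.69, a difference of 0.55 (exact permutation p = 0.1, 0.2 adjusted). These values describe the 2 genes of a pair against each other in these 6 livers, and both unadjusted p equal the smallest this test can give.

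Otc against Cps1 was lower in BPD livers 23 and 28 (-1.30 and -1.39) than in GFP livers (-0.71 to -0.62), while BPD liver 36 (-0.68) lay among them. The difference was -0.47 (exact permutation p = 0.2, 0.3 adjusted). Nags and Arg1 overlapped between the groups in this ratio, with differences of 0.22 and 0.094 (exact permutation p = 0.3 and 0.7). Arg2 lay higher against Cps1 in BPD livers by 1.47 (exact permutation p = 0.1, 0.2 adjusted), although BPD liver 36 (-7.23) stood only just above the highest GFP liver (-7.30), and with an added constant of 1 the groups overlapped.

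**Figure D3:**
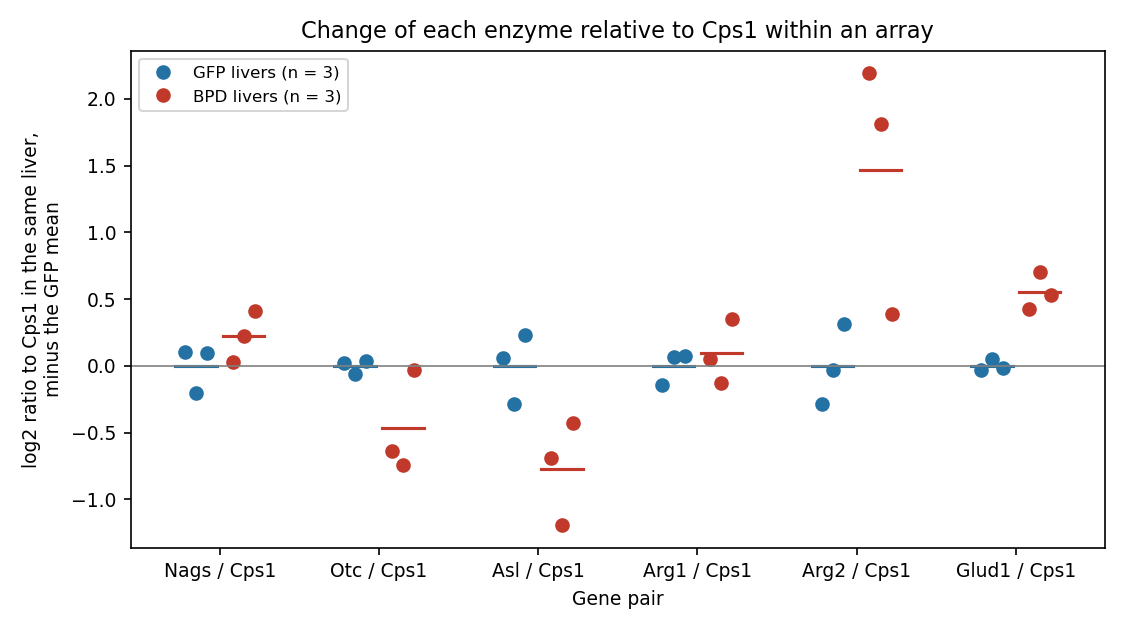
Log2 ratio of each enzyme to Cps1 in the same liver, minus the mean of the GFP livers, with points for livers and lines for group means (n = 3 each). All BPD livers lie below the GFP livers for Asl and above them for Glud1, and BPD liver 36 lies among the GFP livers for Otc.

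The genes whose course over the 6 livers was closest to that of Cps1 were found by the root mean square difference of their deviations from their own mean (log2, 8151 genes, 6 livers). They were Rabgap1l (0.031), Cyb5a (0.049), Rabac1 (0.062), Pdxk (0.066) and Zkscan5 (0.068). Cyb5a, the microsomal cytochrome b5, read 12436, 11347 and 11170 in BPD and 17281, 17446 and 18026 in GFP livers. Among the members Arg1 (0.16) was nearest to Cps1, with Nags at 0.19, Glud1 at 0.29, Otc at 0.32, Asl at 0.47 and Arg2 at 0.93. By this measure Arg1 ranked 261 among all genes, so many genes outside the cycle ran closer to Cps1 than its nearest fellow enzyme.

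Signals of genes for carriers and bicarbonate supply were lower in part. Of 6 tested genes 3 fell and 0 rose, with a median of -0.83 beside -0.22 for all genes (22.2% of genes called lower and 8.75% higher). For genes as units, the shares called lower and higher were 11.1% and 17.2% on the deposited scaling, 13% and 12.7% after quantile normalization, and 4.01% and 50.2% after centring on hepatocyte markers. Car5a, the mitochondrial carbonic anhydrase that provides bicarbonate to Cps1, fell from 1667 ± 284 to 458 ± 96 (signal, SD, n = 3), a log2 difference of -2.13 ± 0.22 (limma adjusted p = 0.0005), and passed under all 4 scalings. Slc25a13, the aspartate and glutamate exchanger citrin that delivers aspartate for argininosuccinate, fell by 0.98 ± 0.18 (adjusted p = 0.0041), and Aqp9, a channel for glycerol and urea, fell by 0.97 ± 0.13 (adjusted p = 0.0012). Neither passed with centring on hepatocyte markers. The ornithine carrier Slc25a15 (-0.68 ± 0.23, adjusted p = 0.056) and the cationic amino acid carrier Slc7a2 (-0.65 ± 0.23, adjusted p = 0.062) did not pass. With array weights, or without GFP mouse 29, 5 of the 6 fell, and with centring on hepatocyte markers 1 fell and 1 rose.

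Genes of glutamine and ammonia scavenging were lower as well, with 6 of 8 tested fallen, 0 risen and a median of -1.27. Oat, the pericentral ornithine aminotransferase, fell by 2.76 ± 0.22 (limma adjusted p = 0.00018). Mean signals were 13235 ± 1628 in GFP and 2473 ± 890 in BPD livers (SD, n = 3). Glul, the glutamine synthetase that binds ammonia escaping the periportal cycle, fell by 0.96 ± 0.15 (adjusted p = 0.0021), from 7771 ± 503 to 4926 ± 642. The ammonia channel Rhbg (-1.40 ± 0.21), the glutamine carrier Slc38a3 (-1.78 ± 0.16) and the amino acid carrier Slc38a4 (-1.15 ± 0.15) fell too. The falls of Oat, Rhbg, Slc38a3 and Slc38a4 passed under all 4 scalings, and that of Glul under all but centring on hepatocyte markers (-0.24, adjusted p = 0.16). Gls2, the liver glutaminase, was not analysed here.

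Markers of the periportal zone, that of the cycle, and of the pericentral zone were mostly lower after centring. Of 8 tested periportal markers 5 fell and 1 rose (Ctsc, a cathepsin also made by immune cells and named after its value was seen), with a median of -0.85, and of 12 pericentral markers 8 fell and 0 rose, with a median of -1.21. The periportal counts were 4 fallen and 2 risen on the deposited scaling, 4 and 1 after quantile normalization, and 3 and 2 with centring on hepatocyte markers, where the pericentral counts were 8 and 0, 8 and 0, and 6 and 1. The pericentral list holds Oat, Glul, Rhbg and Slc1a2 of the scavenging list. Hal is on the periportal and the amino group lists, and Hpd and Tat on the latter and the hepatocyte list. The summed signal of the periportal markers was 25533 to 32266 in BPD and 47725 to 52208 in GFP livers, and that of the pericentral markers 29876 to 40672 against 62722 to 67676. The difference between the zones was not tested.

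Markers of hepatocytes in general, a list without any member, moved in the same direction. Their summed signal over 18 genes was 230260 to 259077 in BPD and 312980 to 341926 in GFP livers, and 18 of 18 tested markers fell after centring, but 11 on the deposited scaling and 1 after quantile normalization. Their median was -0.67, against -0.87 for the members. With arrays centred on these markers Asl (-1.01), the 3 probe sets of Otc (-0.71 to -0.90) and Cps1 (-0.24) still fell. Of the 679 brightest probe sets 58% were called lower after centring, with a median of -0.56. After quantile normalization the median of the hepatocyte markers was -0.063 beside -0.060 for all genes. In whole liver, fewer hepatocytes and less RNA per hepatocyte cannot be told apart, and the part of the scaling of bright probe sets was not tested. No marker of this list lay below the added constant in every liver.

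Genes of amino acid breakdown, listed for amino group transfer and release, showed a broad fall. Of 12 tested genes of this list 11 fell and 0 rose, with a median of -1.49. The count was 7 after quantile normalization or centring on hepatocyte markers and 8 on the deposited scaling. Prodh, the proline dehydrogenase, fell by 3.52 ± 0.26 (limma adjusted p = 0.00014). Falls were also seen for Hal, which releases ammonia from histidine (-1.95 ± 0.24), and Agxt, an alanine and glyoxylate aminotransferase (-1.85 ± 0.25). Hpd, a step of tyrosine breakdown after the amino group has left, fell as well (-1.53 ± 0.14). These 4 passed under every scaling.

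Aminotransferases of aspartate, alanine and tyrosine were among the fallen genes. Got1, the cytosolic enzyme that makes aspartate available to the cycle, fell by 1.44 ± 0.23 (limma adjusted p = 0.0023) and passed under all 4 scalings. Gpt, the alanine aminotransferase, fell by 0.84 ± 0.17 (adjusted p = 0.0064), and Tat, which starts tyrosine breakdown, fell by 0.67 ± 0.18 (adjusted p = 0.023). Neither passed with quantile normalization or with centring on hepatocyte markers, where Tat turned to 0.051, and Tat did not pass with the deposited scaling.

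Among genes that use arginine and ornithine, calls depended on the scaling. Of 9 tested 4 fell and 0 rose, with a median of -0.46, and 2 fell without BPD mouse 28. Gamt, of creatine synthesis, fell by 1.47 ± 0.18 and Agmat, agmatinase, fell by 1.43 ± 0.17 (limma adjusted p = 0.00084 for each), both under all 4 scalings. The polyamine genes Srm (-0.63 ± 0.15) and Oaz1 (-0.61 ± 0.14) fell after centring, but with centring on hepatocyte markers they turned to 0.087 and 0.11, and Oaz1 was 0.023 with quantile normalization. Odc1, ornithine decarboxylase, the enzyme that draws ornithine into polyamines, was 0.18 ± 0.19 after centring (adjusted p = 0.49) but rose on the deposited scaling (0.48, adjusted p = 0.042) and after quantile normalization (0.53, adjusted p = 0.030), and was 0.90 (adjusted p = 0.0023) with centring on hepatocyte markers. The list had 2 risen genes under each of those 2 scalings and 4 with centring on hepatocyte markers.

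Pyrimidine synthesis uses carbamoyl phosphate made in the cytosol by Cad instead of Cps1. Of 6 tested genes 1 rose and 0 fell, where 8.75% of all genes were called higher and 22.2% lower. The median was -0.10 beside -0.22 for all genes. With array weights, with the Gapdh ratio in the model, or without BPD mouse 36 or GFP mouse 31, 1 fell. On the deposited scaling 2 rose (17.2% of all genes did), and 4 with centring on hepatocyte markers (50.2% of all genes did). With so few genes, a departure from these shares cannot be read from the counts. The difference of this list from the cycle was not tested. Ctps, the CTP synthetase, rose by 0.69 ± 0.15 (limma adjusted p = 0.0098) and passed under all 4 scalings. Cad was -0.12 ± 0.19 (adjusted p = 0.65), with a sign that turned under the deposited scaling (0.18) and centring on hepatocyte markers (0.59, adjusted p = 0.030).

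Regulators of the cycle's genes and enzymes were mostly lower after centring, with 9 of 12 tested fallen, 0 risen and a median of -0.70. The count was 3 with the deposited scaling, 4 with quantile normalization and 2, with 1 risen, with centring on hepatocyte markers. The glucagon receptor Gcgr, through which the hormone raises urea cycle enzymes, fell by 1.33 ± 0.21 (limma adjusted p = 0.0024), and Ppara, a nuclear receptor of the fasting response, fell by 1.55 ± 0.26 (adjusted p = 0.0032). These 2 passed under all 4 scalings. Sirt3, a mitochondrial deacetylase, fell by 1.02 ± 0.20 and the glucocorticoid receptor Nr3c1 fell by 0.64 ± 0.16. Sirt3 did not pass with centring on hepatocyte markers (-0.30, adjusted p = 0.18), and Nr3c1 passed only after centring on array medians and was 0.075 with centring on hepatocyte markers. Cebpa, a transcription factor of hepatocyte metabolism, fell by 1.03 ± 0.29 (adjusted p = 0.026) and Hnf4a, which maintains hepatocyte identity, fell by 0.58 ± 0.19 (adjusted p = 0.047). Neither of these passed under another scaling, and Hnf4a was 0.13 with centring on hepatocyte markers. The count of fallen regulators was 3 without BPD mouse 23 or 28 and 4 without GFP mouse 22 or 31.

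**Figure D4:**
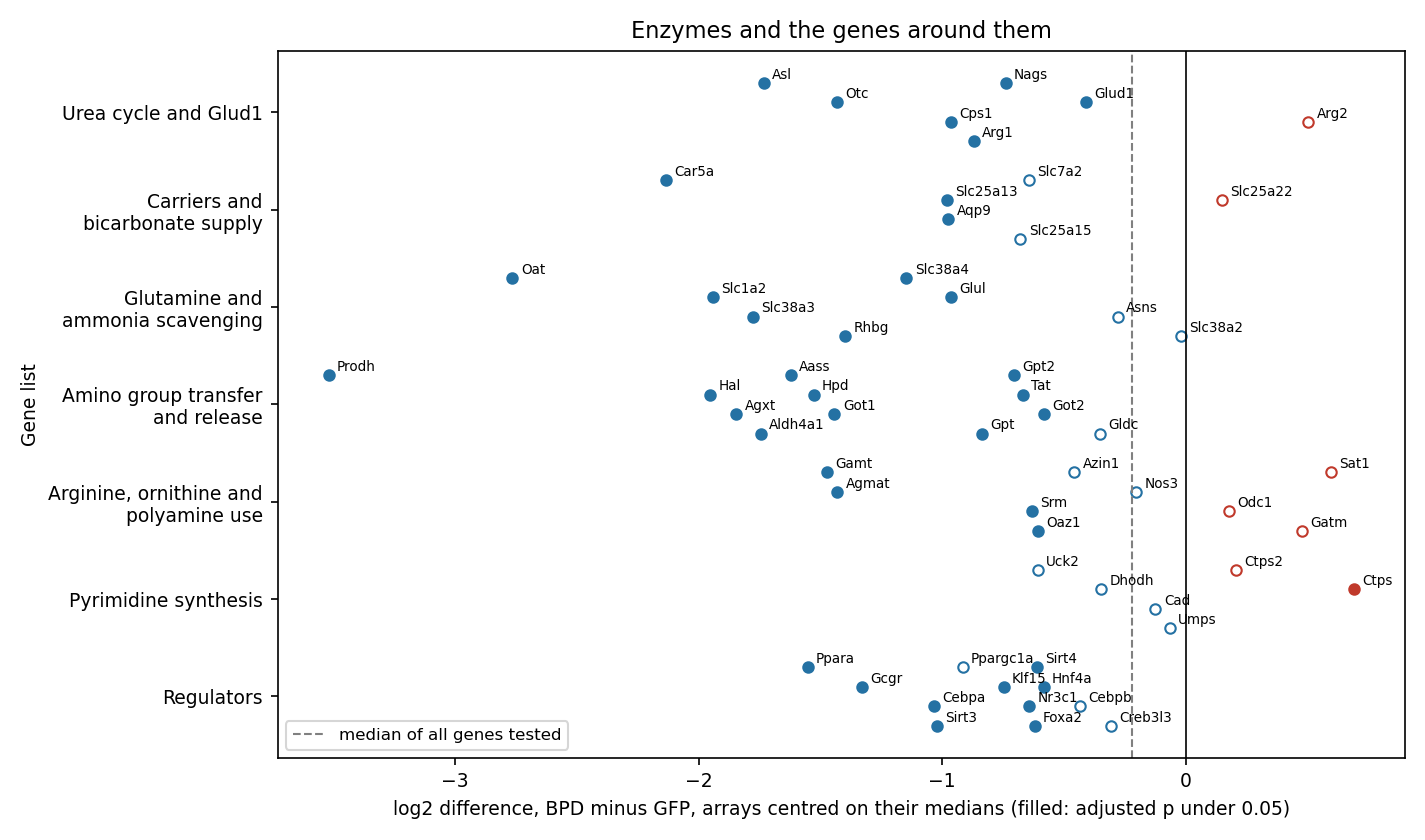
Log2 difference, BPD minus GFP, of the tested genes of each list after centring on array medians, 1 point per gene (blue below 0, red above 0). Filled points passed an adjusted p of 0.05 (limma), and the dashed line is the median of all genes (-0.22). Prodh (-3.52), Oat (-2.76) and Car5a (-2.13) lie farther from 0 than any urea cycle gene, and pyrimidine genes lie around 0.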

How the data were processed

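Whole-liver RNA of 6 mice (3 BPD, 3 GFP) was labelled with biotin and hybridised to 1 array each, per the labels' protocols. The deposited values are signal intensities per probe set, made with MAS5 per the submitters' processing notes. The MAS5 version and target are not given there. Their 2% trimmed mean was 499.9 on every array. Of 22690 probe sets, 64 manufacturer controls were left out. Of the other 22626, 20380 have 1 symbol in the platform annotation, 691 several and 1555 none. All 6 columns were used and 0 left out.

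Values were taken as log2(signal + 16.3313), the constant being 10% of the median of all values, which understates changes of dim probe sets. Each array was centred on its median (medians differed up to 1.46-fold). The 13575 probe sets with a mean above the 40th percentile (a signal of 98.8) were tested in R version 4.3.3 with limma version 3.58.1 (lmFit, eBayes with intensity trend, 2-sided, 4 residual and 5.44 prior degrees of freedom) and adjusted over all of them. For each of 8151 genes the brightest kept probe set stood for the gene. The fit was tested on simulated data. The labels give separate mice, and their number limits the precision. No mouse number occurs in both groups.

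Members, gene lists and rules were chosen with earlier results of these data known. Named are all members, up to 4 genes with the smallest p among those called in each pathway list, a fixed set (Slc25a15, Slc25a13, Slc7a2, Car5a, Glul, Gls2, Oat, Got1, Gpt, Tat, Odc1, Cad, Cebpa, Hnf4a, Ppara and Sirt5) and the 5 genes nearest to Cps1. Gls2 and Sirt5 were not analysed here. Slc1a2 is named as an overlap of lists, outside the rule. Lists of lymphocyte, stellate, endothelial, cholangiocyte, erythroid and kidney markers were run too. Of these, 1 of 3, 4 of 10, 1 of 8, 1 of 1, 1 of 3 and 0 of 1 tested genes rose, and 0, 0, 1, 0, 1 and 0 fell. Risen lymphocyte genes numbered 0 without BPD mouse 23 or 28 or GFP mouse 22 or 31, and 2 without GFP mouse 29. Risen stellate genes numbered 2 without BPD mouse 23 or 28 and 8 without BPD mouse 36, and risen endothelial genes 2 without BPD mouse 36 or GFP mouse 29. Fallen endothelial genes numbered 2 without GFP mouse 31 and 0 without any other mouse. Alternatives changed the scaling, the constant, the filter, the variance model, array weights, the probe sets used, a Gapdh covariate and the mice included.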

Additional observations from a re-analysis of the deposited data

How the results depend on the processing

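No paired analysis was possible because the groups share no mouse number. Over all probe sets, 3885 were called, but 7262 with centring on hepatocyte markers (6806 higher, 456 lower), 2576 when probe sets able to match several transcripts were left out (8652 were tested), and from 1984 (without BPD mouse 28) to 3971 (without BPD mouse 36) with a mouse left out. The number of member probe sets called lower, 9 of 10, was 5 of 10 with centring on hepatocyte markers, where 2 were called higher. Otherwise it was 6 to 9, with 8 to 11 tested, and all 8 tested with the filter at the 60th percentile were called lower. With a mouse left out it was 6 (without BPD mouse 28, with 9 tested, or GFP mouse 22, with 10 tested) to 8. Without BPD mouse 36, 1 was called higher. Within-array ratios without overlap numbered 3, and 2 to 4 under the alternatives run on them. Of the arginine and ornithine list 2 of 6 tested genes fell when probe sets able to match several transcripts were left out. Called genes over all lists numbered 82, and 59 to 90 under the alternatives. The share of calls that were lower moved with the scaling, from 2759 lower and 1126 higher to 1314 and 2265 on the deposited scaling and 1637 and 1691 after quantile normalization.

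Signs turned for Glud1 with quantile normalization (0.21 and 0.061) and centring on hepatocyte markers (0.31 and 0.20), for Oaz1 in the same settings (0.023 and 0.11), and for Cad with the deposited scaling (0.18), with centring on hepatocyte markers (0.59) and, with a mouse left out, without GFP mouse 31 (0.055, against -0.26 without GFP mouse 29). With centring on hepatocyte markers they also turned for Srm (0.087), Nr3c1 (0.075), Slc25a15 (0.040), Slc7a2 (0.073), Tat (0.051) and Hnf4a (0.13). For these 40 probe sets of members and named genes, robust eBayes and a constant of 1 changed no call or sign, and the scalings changed 9 (deposited), 10 (quantile) and 20 (hepatocyte markers). The cause was not tested. The call of the brighter Glud1 probe set was also lost without the filter, without the intensity trend and with the Gapdh covariate (adjusted p from 0.068 to 0.088).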
